A study of Drosophila melanogaster with 9 samples.

Results

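Chromosome X was examined in the ChIP-seq reads of bam testis and S2 cells and in the RNA-seq reads of S2 cells, as 44845 windows of 500 bp and 449 regions of 50 kb counted from its first base in the dm3 build. Every window and region of X was taken, so no measured value entered the choice. These are 44845 of the 195744 windows, and 449 of the 1959 regions, of X and the autosome arms 2L, 3L and 3R. The pooled 2L, 3L and 3R arms, with 150899 windows and 1510 regions, served as the comparison. The bam testes came from bam1/bam114-97 males, in which mutation of bag of marbles stops spermatogonia from becoming spermatocytes, and approximately 200 pairs of testes were used for each ChIP. They hold accumulated undifferentiated germ cells together with somatic cells, so each level averages over both. S2 is a cultured Drosophila line of embryonic origin, obtained from ATCC. In both samples the antibodies were against H3K4me3, H3K27me3, H3K36me3 and RNA polymerase II (Pol II), and S2 cells also had an RNA library, which gives 9 libraries with 1 library per sample and target. Without replicates, neither samples nor chromosomes could be tested against each other, and the spread among the 3 autosome arms is given beside the values of X. Windows were not assigned to genes, so regions are named by position and the testis and S2 markers were not checked.

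Male Drosophila carry a single X and a pair of each autosome. In somatic male cells the MSL complex, guided by the roX RNAs, binds active genes of the X, acetylates lysine 16 of histone H4 and raises their transcription, and S2 cells carry this male form of dosage compensation. MSL spreads along the X by recognising H3K36me3, a mark laid down over transcribed gene bodies. H3K4me3 marks the start of active genes, H3K27me3 is deposited by Polycomb repressive complexes over silent genes, and the Pol II antibody binds both the initiating and the elongating enzyme.

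The libraries held 1250028 to 3729366 kept ChIP-seq reads and 7289715 kept RNA-seq reads, and X took between 9.55% and 16.4% of them. A level is a density, in reads per kb, scaled to the kept reads of the library as RPM (RPM per kb). Intervals are at the 95% level and cover counting error only, because the reads carry no molecular identifiers. No read of any of the 9 libraries fell in 4.68% of the X windows and in 3.43% of the autosome windows. Read density follows the number of DNA copies as well as the amount of a mark per copy. No unenriched library was used here, so a single X and a lower level of a mark per copy cannot be told apart.

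All 4 targets had a lower density on X than on each of the 3 autosome arms, in both samples. In bam testis, H3K4me3 had 4.26 RPM per kb on X and 8.54 RPM per kb on the autosomes, a ratio of 0.499 (0.496 to 0.502), while the single arms lay between 0.977 and 1.02 times the autosome mean. H3K27me3 in bam testis had 4.97 RPM per kb on X and 8.59 RPM per kb on the autosomes, a ratio of 0.579 (0.577 to 0.581). H3K36me3 had 5.63 RPM per kb on X and 8.03 RPM per kb on the autosomes, a ratio of 0.701 (0.698 to 0.705). Pol II had 5.16 RPM per kb on X and 8.38 RPM per kb on the autosomes, a ratio of 0.616 (0.612 to 0.619). The start mark H3K4me3 was thus the lowest of the bam testis targets on X and the gene body mark H3K36me3 the highest.

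In S2 cells the order was different. H3K27me3, the Polycomb mark, had the lowest ratio, with 4.46 RPM per kb on X and 8.90 RPM per kb on the autosomes, or 0.500 (0.498 to 0.502). H3K36me3 had 5.01 RPM per kb on X and 8.24 RPM per kb on the autosomes (0.608, 0.606 to 0.610), and H3K4me3 had 5.49 and 8.60 RPM per kb (0.638, 0.635 to 0.642). Pol II had the highest ratio of the S2 ChIP-seq libraries, 6.12 RPM per kb on X and 8.42 RPM per kb on the autosomes (0.727, 0.724 to 0.730). S2 RNA had 7.33 RPM per kb on X and 8.21 RPM per kb on the autosomes, a ratio of 0.892 (0.890 to 0.894), which lies above all 8 ratios of the ChIP-seq libraries. The lowest autosome arm for RNA, 2L, had 7.78 RPM per kb. Over all 9 libraries the single autosome arms lay between 0.907 and 1.10 times the autosome mean, so the ratios of X for the ChIP-seq libraries lie outside that range. For RNA the lowest arm stood at 0.947 of the autosome mean, so X was below it by a smaller margin.

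**Figure D1:**
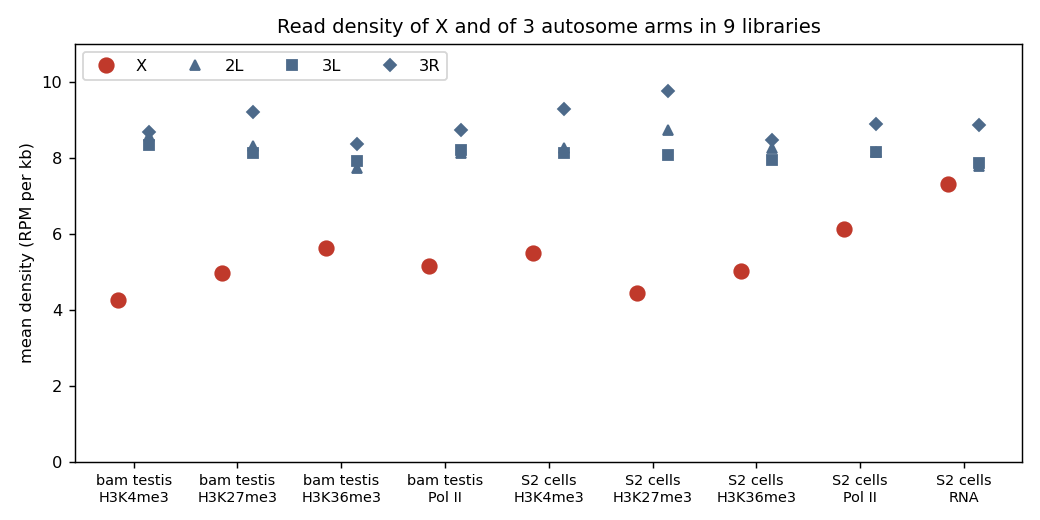
Mean read density, in RPM per kb, of X (red circles) and of the autosome arms 2L, 3L and 3R (blue triangles, squares and diamonds) in the 9 libraries, with 1 library each. X lies below the 3 arms in every library, at 4.26 RPM per kb for bam testis H3K4me3 and at 7.33 RPM per kb for S2 RNA.

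A single ratio describes X well for some targets and poorly for others. The 50-kb regions of X and of the autosomes were each ordered by density, and the densities at the same percentile were compared. For H3K4me3 in bam testis the ratio was 0.489 at the 10th percentile, 0.478 at the median and 0.522 at the 90th percentile. For H3K27me3 in bam testis it was 0.546, 0.586 and 0.591 at the same percentiles. For Pol II in S2 cells it was 0.737, 0.747 and 0.765, and 0.596 at the 99th percentile. Up to the 90th percentile these 3 libraries thus had nearly the same ratio in weakly and strongly marked regions.

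H3K36me3 behaved differently. In S2 cells its least marked regions were higher on X, with 1.04 RPM per kb on X and 0.743 RPM per kb on the autosomes at the 10th percentile, a ratio of 1.40, and the arms ranged from 0.728 to 0.770 RPM per kb. At the 25th percentile the densities were 1.57 RPM per kb on X and 1.11 RPM per kb on the autosomes, a ratio of 1.41, with arms from 1.04 to 1.43 RPM per kb. Its most marked regions were lower on X, with 11.1 RPM per kb on X and 21.1 RPM per kb on the autosomes at the 90th percentile, a ratio of 0.527, where the arms ranged from 19.7 to 22.2 RPM per kb. The range of S2 H3K36me3 was therefore narrower on X from both ends. In bam testis the H3K36me3 ratio was 0.717 at the 10th percentile, 0.804 at the 25th and 0.579 at the 99th, so it stayed below 1 throughout. H3K4me3 in S2 cells had ratios of 0.829 at the 25th percentile and 0.572 at the 99th. S2 H3K27me3 went the other way, with ratios of 0.381 at the 10th percentile and 0.538 at the 90th.

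**Figure D2:**
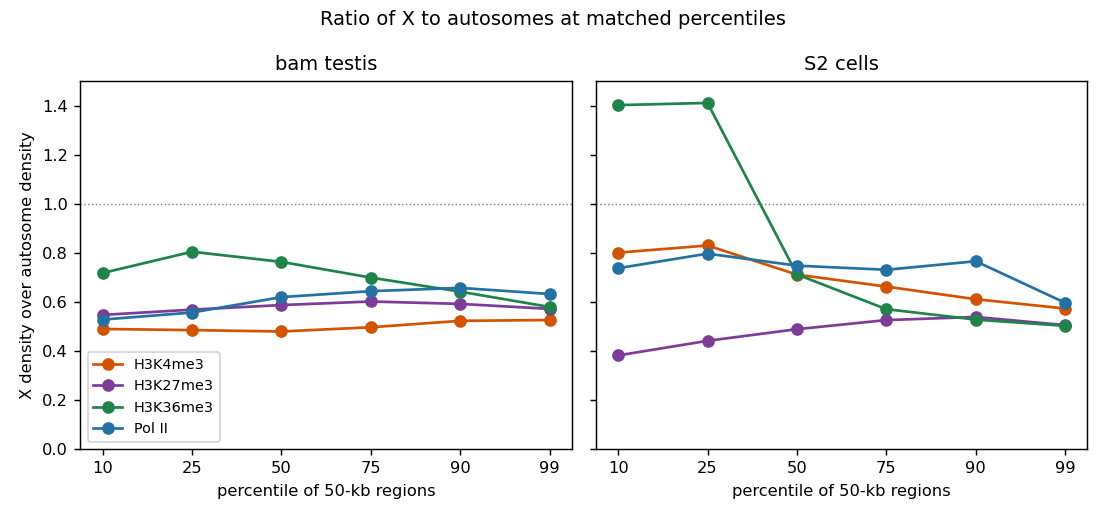
Density of X divided by the density of the autosomes at the same percentile of 50-kb regions, for 4 ChIP-seq targets in bam testis (left) and S2 cells (right), with 449 regions of X and 1510 of the autosomes. The S2 H3K36me3 line starts at 1.40 at the 10th percentile and ends at 0.502 at the 99th, while that of bam testis H3K4me3 stays between 0.478 and 0.525.

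Levels were also taken in 500-bp windows that held a read but had no call in the other 7 ChIP-seq libraries (a call being 14 or more RPM per kb, a threshold described below). Windows called for the measured library itself were kept, so these are not levels of weakly marked windows alone. Through a bam testis H3K36me3 call, 38.5% of the S2 H3K36me3 windows on X were left out, against 71.0% on the autosomes. In those windows S2 H3K36me3 had 3.36 RPM per kb in 29806 windows of X and 2.64 RPM per kb in 60117 windows of the autosomes, a ratio of 1.28 (1.27 to 1.28), and the arms ranged from 2.51 to 2.80 RPM per kb. With thresholds lowered on X, which removes more windows there, the S2 H3K36me3 ratio was 1.15 (1.14 to 1.16). S2 H3K4me3 had a ratio of 1.06 with the fixed threshold and 0.808 with the lowered one, so its direction depended on the threshold. The other 6 libraries stayed below 1 with both thresholds, from 0.489 for bam testis H3K4me3 to 0.861 for bam testis H3K36me3 with the fixed one. For bam testis H3K4me3 the ratio over the whole chromosome was 0.499, so windows without calls elsewhere gave nearly the same value.

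Along X, the densities of the 22 full 1-Mb segments varied less for ChIP-seq than for RNA. The highest segment was 1.79-fold above the lowest for bam testis H3K4me3, the most even library, and 2.85-fold for S2 H3K4me3, the least even of the ChIP-seq libraries. S2 RNA varied 6.05-fold. The segment chrX:15000001-16000000 was the highest for H3K4me3 in bam testis (5.46 RPM per kb), for H3K4me3 in S2 cells (8.19 RPM per kb) and for H3K36me3 in S2 cells (7.78 RPM per kb). The segment chrX:19000001-20000000 was the highest for Pol II in bam testis (6.70 RPM per kb) and in S2 cells (8.01 RPM per kb), and chrX:11000001-12000000 was the highest for S2 RNA (13.4 RPM per kb). H3K27me3 peaked elsewhere, at chrX:4000001-5000000 in bam testis (6.40 RPM per kb) and at chrX:18000001-19000000 in S2 cells (6.43 RPM per kb). The segment chrX:21000001-22000000, next to the centromeric end of the assembled arm, was the lowest for all 4 targets in bam testis, with 3.03 to 3.60 RPM per kb.

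Of the 449 regions of 50 kb, 448 held a read. Across them the active marks, Pol II and RNA followed each other, and H3K27me3 ran against them. In S2 cells, Spearman's rho was 0.896 between H3K4me3 and RNA, 0.862 between H3K36me3 and RNA, and -0.550 between H3K27me3 and RNA (n = 448 regions, as a description, since neighbouring regions share genes and base composition). Between bam testis and S2 cells, rho on X was 0.875 for Pol II, 0.786 for H3K4me3 and 0.753 for H3K27me3, against 0.860, 0.771 and 0.717 on the autosomes (n = 1510 regions). Across these 50-kb regions H3K36me3 stood apart, with a rho of 0.688 on X and 0.862 on the autosomes. It did not stand apart across 500-bp windows with a read, where its rho was 0.452 on X and 0.487 on the autosomes. H3K27me3 had 0.550 and 0.627 there, and Pol II 0.430 and 0.477. All reads entered these values, including the stacked H3K36me3 reads of bam testis described below.

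The 3 regions with the highest density of each library gave 27 places, which fell on 18 different regions. The region chrX:1750001-1800000 was first for H3K4me3 in both samples, with 12.9 RPM per kb in bam testis and 32.5 RPM per kb in S2 cells, and had 0.734 RPM per kb of H3K27me3 and 32.5 RPM per kb of RNA in S2 cells. The region chrX:500001-550000 was second for H3K4me3 in both samples, with 11.1 RPM per kb in bam testis and 29.2 RPM per kb in S2 cells. The region chrX:15600001-15650000 was first for S2 H3K36me3 at 21.4 RPM per kb and second for S2 RNA at 59.2 RPM per kb, and it was also among the 3 highest for bam testis H3K36me3 at 11.4 RPM per kb. Pol II in bam testis was highest at chrX:19500001-19550000, with 14.9 RPM per kb. S2 RNA was highest at chrX:11000001-11050000, with 61.1 RPM per kb, and this region also had 12.2 RPM per kb of bam testis Pol II. In all 5 of these regions H3K27me3 was at most 3.22 RPM per kb in bam testis and at most 1.24 RPM per kb in S2 cells.

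H3K27me3 was highest in bam testis at chrX:8500001-8550000, with 13.3 RPM per kb there and 11.7 RPM per kb in S2 cells. The region chrX:4300001-4350000 came second in bam testis (13.1 RPM per kb) and first in S2 cells (12.5 RPM per kb), with 0.0165 RPM per kb of S2 RNA. The largest excess of bam testis over S2 cells in H3K27me3 was at chrX:7500001-7550000, where bam testis had 9.67 RPM per kb and S2 cells had 1.60 RPM per kb, and S2 RNA was 7.91 RPM per kb. Next came chrX:9150001-9200000, with 10.4 RPM per kb in bam testis and 5.53 RPM per kb in S2 cells, and chrX:14600001-14650000, with 5.84 RPM per kb in bam testis and 1.37 RPM per kb in S2 cells. In the other direction, the neighbouring regions chrX:18550001-18600000 and chrX:18600001-18650000 had 5.95 and 6.05 RPM per kb in bam testis and 9.34 and 9.22 RPM per kb in S2 cells. The region chrX:21750001-21800000 had 0.858 RPM per kb of H3K27me3 in bam testis and 12.2 RPM per kb in S2 cells. The other 3 targets in bam testis were also low there, with 0.455 to 0.563 RPM per kb, so this difference went with few bam testis reads of any target. The bam testis files, unlike the S2 files, also hold reads on the dm3 sequence U. Whether this bears on the difference was not tested. The region holds a window in which all 4 S2 targets were raised, described below with the windows that carry H3K4me3 and H3K27me3 together.

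The ends of X were lower than the rest. The last 10 regions of 50 kb, at the centromeric end, had 0.725 RPM per kb of S2 RNA, the first 10 had 2.81 RPM per kb, and the regions between had 7.58 RPM per kb. S2 H3K4me3 had 1.62 RPM per kb in the last 10, 4.31 RPM per kb in the first 10 and 5.60 RPM per kb between them. S2 H3K27me3 was nearly level, with 4.20, 3.93 and 4.47 RPM per kb.

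The threshold for a call was 14 RPM per kb in every library. For reads placed at random on 120 Mb of mappable genome, the Poisson p of a 500-bp window at this density ranged from 0.00520 for bam testis H3K27me3 to 0.0826 for S2 H3K4me3, because the same density is reached with fewer reads in a shallower library. With this fixed threshold every target had a lower share of called windows on X. In bam testis 3.86% of the X windows (3.69% to 4.04%) were called for H3K4me3, against 11.8% of the autosome windows. H3K27me3 was called in 2.74% (2.59% to 2.89%) of the X windows and 14.5% of the autosome windows. The shares were 11.3% on X and 16.6% on the autosomes for H3K36me3, and 6.01% on X and 14.2% on the autosomes for Pol II. In S2 cells H3K4me3 was called in 6.76% (6.53% to 6.99%) of the X windows and 7.34% of the autosome windows, where the arms ranged from 7.00% to 7.92%. The S2 shares were 5.15% on X and 23.4% on the autosomes for H3K27me3, 11.5% and 16.1% for H3K36me3, and 9.24% and 12.3% for Pol II.

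A fixed threshold asks for more enrichment over the chromosome's own level on X than on the autosomes. The threshold was therefore also lowered on X by the ratio of the median 50-kb regions, for example to 6.70 RPM per kb for bam testis H3K4me3 and to 10.5 RPM per kb for S2 Pol II. X then had 16.8% called windows for bam testis H3K4me3, 16.0% for H3K27me3 and 18.8% for Pol II, all above the pooled shares given above, although the arms reached 17.1% for H3K27me3. The shares of X in S2 cells came to 7.60% for H3K4me3 and 24.9% for H3K27me3, both within the range of the arms, and to 13.3% for Pol II, where the highest arm had 12.9%. H3K36me3 stayed below the pooled autosomes in both samples, with 15.4% in bam testis, where the lowest arm also had 15.4%, and 15.3% in S2 cells, where the lowest arm had 15.5%. The lowered threshold amounts to 5 reads in a window for bam testis H3K4me3, where 10 are needed on the autosomes and the median X window held 2. Counting noise thus weighs more on the X calls of this library than on the autosome calls.

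Windows called in bam testis were then looked up in S2 cells. On X, 39.1% (37.7% to 40.4%) of the 5067 bam testis H3K36me3 windows were also called in S2 cells, against 69.1% (68.5% to 69.6%) on the autosomes, where the arms ranged from 68.2% to 69.6%. In reverse, 38.5% of the 5149 S2 H3K36me3 windows on X were also called in bam testis, against 71.0% on the autosomes. Lowering the threshold on X brought both shares of X to 46.1% and 46.3%, still below the autosomes. The H3K36me3 threshold was lowered by the median ratios, 0.762 in bam testis and 0.711 in S2 cells. At the 90th percentile the ratios were 0.641 and 0.527, so strongly marked regions of X lay lower than this allows for. A threshold lowered further was not tested. For the other targets, too, the size or the direction of the difference depended on the threshold. With the fixed threshold 53.5% of the bam testis Pol II windows on X were shared, against 49.6% on the autosomes, and 39.9% of the bam testis H3K27me3 windows, against 67.8%. With the lowered threshold, for H3K27me3, 63.3% of the bam testis windows on X were shared, against 67.8% on the autosomes, and 40.7% of the S2 windows, against 42.0%. For Pol II the lowered threshold gave 40.1% on X and 49.6% on the autosomes for bam testis, and 56.7% on X and 57.4% on the autosomes for S2 cells. For H3K4me3, 69.8% of the S2 windows on X were shared, against 66.1% on the autosomes. With the fixed threshold 82.3% of the 1732 bam testis H3K4me3 windows on X were also called in S2 cells, against 41.3% on the autosomes, and this share was 31.5% on X with the lowered threshold. For H3K4me3 and for the bam testis share of Pol II, the lowered threshold thus turned the direction of the difference between X and the autosomes. It did not for H3K36me3 or H3K27me3, nor for the S2 share of Pol II, which was 34.8% on X with the fixed threshold. With the lowered threshold, however, the S2 shares of H3K27me3 and Pol II on X lay within the range of the arms. That range was 39.7% to 44.5% for H3K27me3 and 55.3% to 59.1% for Pol II.

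**Figure D3:**
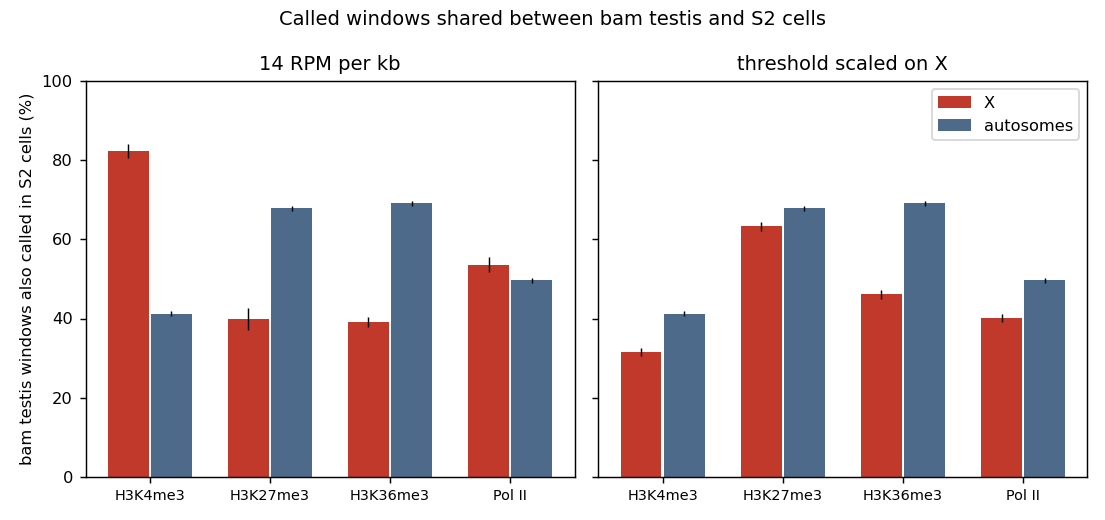
Share of the windows called in bam testis that were also called in S2 cells, for X (red) and the pooled autosomes (blue), with a fixed threshold (left) and with the threshold lowered on X (right). Bars are percentages with Wilson intervals, and for H3K36me3 X is at 39.1% and 46.1% in the left and right panels, against 69.1% on the autosomes.

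Part of the bam testis H3K36me3 calls on X rested on stacked reads. A stack is a position and strand with 3 kept copies, the most that were kept. Bam testis H3K36me3 had 391.6 stacks per Mb on X and 317 per Mb on the autosomes, where the arms ranged from 293 to 333, and it was the only one of the 8 ChIP-seq libraries with more stacks per Mb on X. Of the reads on X, 12.2% lay in stacks, against 6.94% on the autosomes. The limit of 3 copies removed 8.98% of its X reads, against 3.89% of all its reads. Many of these positions were also read by other antibodies, since 37.3% of the stacks on X had at least 1 read at the same base and strand in bam testis H3K27me3, and 26.0% in S2 Pol II, against 16.4% and 11.3% on the autosomes. Windows with a stack that was also read in bam testis H3K27me3 made up 4.31% of X and 1.78% of the autosomes. They held 42.6% of the 3087 X windows called for H3K36me3 in bam testis alone, and 4.44% of the 1980 called in both samples. On the autosomes they held 20.2% of the 7732 windows called in bam testis alone, and 1.82% of the 17265 called in both samples. They were thus more frequent in the windows of bam testis alone on the autosomes as well. How these stacks arose was not tested.

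The lower sharing of H3K36me3 windows on X remained without the windows of stacks also read in bam testis H3K27me3. Stacks not read there were kept. With the windows of stacks also read there left out, 51.6% (50.0% to 53.2%) of the bam testis H3K36me3 windows on X were also called in S2 cells. The autosome share was 73.3%. The X to autosome ratio of bam testis H3K36me3 was then 0.639. The S2 H3K36me3 windows were little touched, and 37.5% of those on X were called in bam testis, against 70.7% on the autosomes. The 3169 X windows called in S2 cells alone had 7.82 RPM per kb of H3K36me3 in bam testis and 24.3 RPM per kb in S2 cells, and 93.0% of them had S2 RNA. The same class on the autosomes had 8.30 RPM per kb in bam testis and 31.1 RPM per kb in S2 cells, and 83.9% of it had S2 RNA. Of the X windows called in bam testis alone and free of those stacks, 40.5% (38.2% to 42.8%) had S2 RNA, against 23.0% (22.0% to 24.1%) on the autosomes. With the lowered threshold, and stacks included, these shares were 23.3% on X and 21.7% on the autosomes. Keeping 1 copy of each read makes every stack count once. The shared part of the bam testis H3K36me3 windows was then 49.8% on X, against 74.8% on the autosomes.

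Pairs of targets were compared with the number of windows expected if both were placed independently. In S2 cells on X, H3K4me3 and Pol II shared 1767 windows, 6.31 times the independent number, against 5.87 times on the autosomes. H3K4me3 and H3K36me3 shared 1269 windows, or 3.65 times, against 3.26 times on the autosomes. The lowered threshold gave 5.15 and 3.17 times for these pairs on X, so the direction of both differences depended on the threshold. H3K36me3 and Pol II shared 992 windows, or 2.09 times, against 2.55 times on the autosomes, where the arms ranged from 2.43 to 2.71, and the lowered threshold gave 2.13 times on X. Active marks thus met more often, and H3K27me3 met each of them less often, than independent placement gives. S2 H3K27me3 and H3K36me3 shared 44 windows on X, or 0.166 times the independent number, against 0.107 times on the autosomes, and 0.137 times with the lowered threshold, which is within the range of the arms.

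In bam testis, H3K4me3 and Pol II shared 688 windows on X, which is 39.7% of the H3K4me3 windows and 6.61 times the independent number, against 3.10 times on the autosomes, but 2.13 times with the lowered threshold. H3K36me3 and Pol II shared 497 windows on X, or 1.63 times, against 2.41 times on the autosomes, and 1.79 times with the lowered threshold. H3K27me3 and H3K36me3, marks of silent and of transcribed genes, shared 102 windows on X, or 0.735 times the independent number, against 0.391 times on the autosomes, where the arms ranged from 0.357 to 0.409. Without the windows of the stacks described above, 32 windows and 0.327 times remained on X, against 0.330 times on the autosomes. With the lowered threshold X had 0.792 times with these windows and 0.399 times without them.

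**Figure D4:**
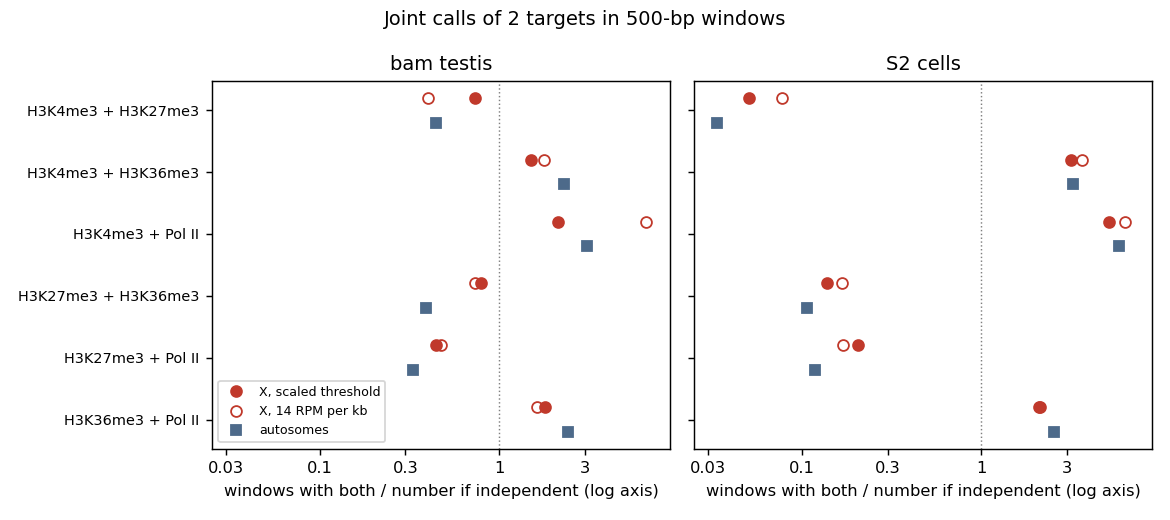
Number of windows called for both targets divided by the number under independent placement, on a log axis, for 6 pairs in bam testis (left) and S2 cells (right). Red circles are X with the lowered (filled) and the fixed (open) threshold and blue squares the autosomes, and bam testis H3K27me3 with H3K36me3 lies at 0.735 and 0.391 for X and the autosomes.

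H3K4me3 and H3K27me3 together, the bivalent combination described at developmental genes of mammalian stem cells, were called together in few windows of X with the fixed threshold. In bam testis 19 windows of X carried both, or 0.401 times the independent number (0.241 to 0.626), which is 1.10% of the H3K4me3 windows and 1.55% of the H3K27me3 windows. On the autosomes 1136 windows carried both, or 0.442 times, which is 6.40% of the H3K4me3 windows and 5.20% of the H3K27me3 windows. Leaving out windows of H3K36me3 stacks also read in bam testis H3K27me3 left 13 on X, or 0.287 times (0.153 to 0.491). The autosomes then had 0.435 times. S2 cells had 12 such windows on X, or 0.0769 times (0.0397 to 0.134), against 87 windows and 0.0336 times on the autosomes. With the lowered threshold bam testis had 889 windows on X, or 0.734 times, which is 11.8% of the H3K4me3 windows and 12.4% of the H3K27me3 windows, so the direction against the autosomes turned with the threshold. S2 cells then had 43 windows, or 0.0507 times. Of the 19 windows of bam testis, 11 were also called for both H3K36me3 and Pol II and only 1 for neither. Of the 12 windows of S2 cells, 10 were called for all 4 targets and 2 for neither of the other targets. With this fixed threshold the autosome windows of bam testis differed, since 849 of 1136 were called for neither H3K36me3 nor Pol II. With the lowered threshold 636 of the 889 X windows were called for neither, so most were, as on the autosomes.

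The 19 windows of bam testis formed 11 runs. At the run with the largest smaller density, chrX:8188001-8190000, bam testis had 86.7 RPM per kb of H3K4me3, 53.4 RPM per kb of H3K27me3, 56.3 RPM per kb of H3K36me3 and 69.7 RPM per kb of Pol II, against 2.91 to 4.98 RPM per kb in the 10 windows on either side. In S2 cells the 4 targets had at most 0.360 RPM per kb there. The second run, chrX:11501-12500, was raised in all 8 ChIP-seq libraries, with 69.7 RPM per kb of H3K4me3 and 42.4 RPM per kb of H3K27me3 in bam testis and 284 and 12.2 RPM per kb in S2 cells. The next, chrX:21834501-21835000, had 46.9 RPM per kb of H3K4me3 and 27.9 RPM per kb of H3K27me3 in bam testis, and 77.4 RPM per kb of H3K36me3. S2 cells also had 11 runs. Their first, chrX:21785001-21785500, had 36.8 RPM per kb of H3K4me3, 302 RPM per kb of H3K27me3, 80.3 RPM per kb of H3K36me3 and 138 RPM per kb of Pol II in S2 cells, and at most 2.34 RPM per kb in bam testis. Their second, chrX:20252001-20252500, was raised in both samples, with 31.3 and 25.2 RPM per kb of H3K4me3 and H3K27me3 in bam testis and 40.0 and 35.98 RPM per kb in S2 cells. Their next, chrX:8987001-8987500, had 27.2 RPM per kb of H3K4me3 and 26.6 RPM per kb of H3K27me3 in S2 cells. In each of these 6 runs, all 4 targets of the sample that chose the run were above their flanking level, and whether extra copies of the sequence contribute was not tested.

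Polycomb silencing covers long stretches, so H3K27me3 windows were joined across gaps of at most 2000 bp and kept at 10 kb or more. With the fixed threshold bam testis had 17 such domains on X, with 1.26% of its length, against 9.73% of the autosomes. S2 cells had 27 domains on X, with 1.74% of its length, against 21.8% of the autosomes. With the threshold lowered on X, the domains numbered 108 in bam testis, with 10.4% of X and a longest domain of 147 kb, and 266 in S2 cells, with 25.7% of X and a longest domain of 115.5 kb. The median length was 14 kb on X and 15 kb on the autosomes in bam testis, and 16.5 kb and 15.5 kb in S2 cells. Of these domains, 86 of the 108 in bam testis overlapped one in S2 cells, and 80 of the 266 in S2 cells overlapped one in bam testis.

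With the fixed threshold, the 5 longest domains of bam testis on X were chrX:4293001-4320000, chrX:17647001-17672000, chrX:17690501-17713500, chrX:5888001-5909500 and chrX:19432001-19453000, between 21 and 27 kb long. In 4 of them S2 cells had 8.38 to 13.0 RPM per kb of H3K27me3 and at most 0.118 RPM per kb of RNA. The exception was chrX:5888001-5909500, with 14.0 RPM per kb of H3K27me3 in bam testis and 3.88 RPM per kb in S2 cells, where S2 cells had 12.2 RPM per kb of Pol II and 9.42 RPM per kb of RNA. The same kind of region was seen with the lowered threshold at chrX:7457001-7532500, with 9.54 RPM per kb of H3K27me3 in bam testis and 3.48 RPM per kb in S2 cells, and 12.5 RPM per kb of S2 Pol II. The 5 longest domains of S2 cells were chrX:16094501-16116500, chrX:17655001-17675500, chrX:16037001-16057000, chrX:18194501-18213500 and chrX:470001-487000, between 17 and 22 kb. All 5 had 10.0 RPM per kb or more of H3K27me3 in bam testis and at most 0.0565 RPM per kb of S2 RNA. Of these 5, chrX:470001-487000 overlapped no domain of bam testis. Of all 27 domains of S2 cells on X, 8 overlapped one of bam testis. With the lowered threshold, chrX:18555001-18646500, among the longest of S2 cells, had 6.32 RPM per kb of H3K27me3 in bam testis and 9.99 RPM per kb in S2 cells.

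Inside the 108 bam testis domains, S2 H3K27me3 averaged 9.52 RPM per kb, against 4.08 RPM per kb elsewhere on X, and S2 H3K36me3 averaged 1.66 RPM per kb, against 5.70 RPM per kb elsewhere. Bam testis Pol II had 3.30 RPM per kb inside and 5.67 RPM per kb outside. Bam testis H3K36me3 differed less, with 5.03 RPM per kb inside and 6.01 RPM per kb outside. These 2 values include the stacked reads, and 37.3% of the stacks on X were also read in bam testis H3K27me3, which chose the domains. They were not computed without the windows of those stacks. S2 RNA was present in 7.02% of the windows of the bam testis domains and in 3.53% of those of the S2 domains.

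RNA was called present in a window at 1 or more RPM per kb. In S2 cells this held for 26.6% of the X windows and 24.6% of the autosome windows, where the arms ranged from 22.6% to 26.6%, so the highest arm nearly equalled X. Among the 50-kb regions, 279 of the 449 on X (62.1%, 57.6% to 66.5%) and 62.6% of those on the autosomes had 1 or more RPM per kb. Where RNA was present, its median was 11.8 RPM per kb on X and 13.2 RPM per kb on the autosomes. The 10 regions with the most RNA held 12.8% of the RNA reads of X.

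Relative to the S2 chromatin calls, with the threshold lowered on X, RNA followed the active marks on X as on the autosomes. It was present in 97.3% of the X windows with both H3K4me3 and H3K36me3, in 87.9% of those with H3K36me3 but not H3K4me3 and in 82.0% of those with H3K4me3 but not H3K36me3, against 97.3%, 87.8% and 80.7% on the autosomes. With the fixed threshold the X shares were 98.3%, 92.3% and 85.5%, so the near equality of the shares depended on the threshold. RNA was present in 5.16% of the X windows with H3K27me3 but neither active histone mark, against 4.54% on the autosomes. In H3K36me3 windows the mean RNA density was 36.6 RPM per kb on X and 43.6 RPM per kb on the autosomes, where the arms ranged from 42.8 to 44.7 RPM per kb. With the fixed threshold this mean was 40.5 RPM per kb on X.

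Pol II windows had RNA less often on X, and the size of this difference depended on the stacked reads described above. RNA was present in 68.1% of the S2 Pol II windows on X and 76.1% of those on the autosomes, where the arms ranged from 74.6% to 77.6%, and the mean RNA density was 25.1 RPM per kb on X and 35.7 RPM per kb on the autosomes. Windows of those stacks made up 11.5% of the S2 Pol II windows on X and 3.32% of those on the autosomes. Without them RNA was present in 72.3% (71.1% to 73.5%) on X and 77.0% on the autosomes, where the lowest arm had 75.6%, and the mean RNA density was 27.4 RPM per kb on X and 36.4 RPM per kb on the autosomes. At 14 RPM per kb the share was 72.1% on X with the stacks and 76.1% without them, against 77.0% on the autosomes without them, so X then lay within the range of the arms.

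Unmarked windows had RNA more often on X. In windows that held a read but no call for any of the 4 targets, RNA was present in 13.1% on X and 8.53% on the autosomes, where the arms ranged from 7.05% to 10.1%. The mean RNA density there was 1.56 RPM per kb on X and 0.752 RPM per kb on the autosomes, where the highest arm had 0.841 RPM per kb. At 14 RPM per kb the unmarked windows of X had RNA in 14.3%. Without the windows of stacks also read in bam testis H3K27me3 it was 13.1% on X and 8.51% on the autosomes with the lowered threshold. This difference thus did not rest on those windows, while other stacks were kept.

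**Figure D5:**
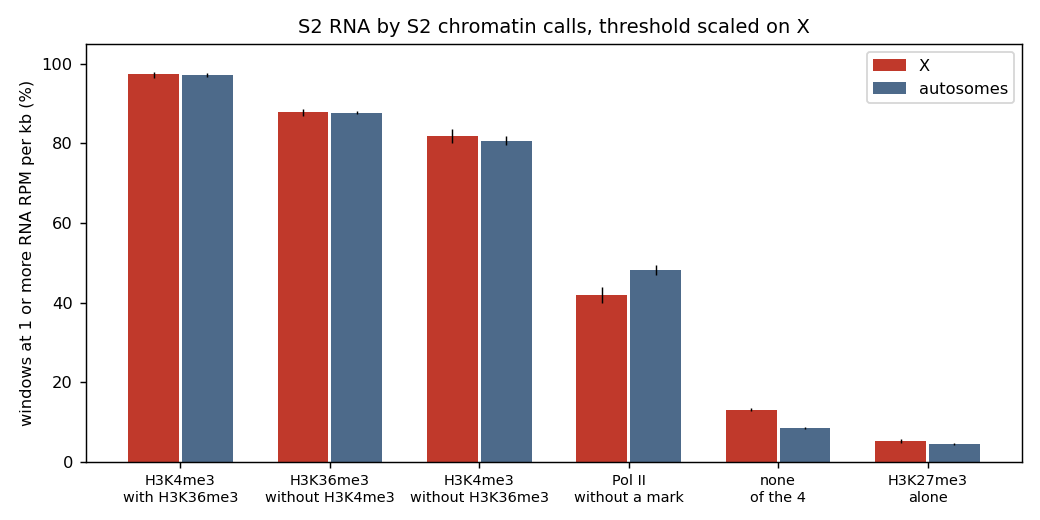
Percentage of 500-bp windows with 1 or more RPM per kb of S2 RNA in 6 classes of S2 chromatin calls, for X (red) and the pooled autosomes (blue), with Wilson intervals and the threshold lowered on X. X is at 13.1% and the autosomes at 8.53% in windows with none of the 4 targets.

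Densities were also averaged around the peak window of each run of H3K4me3 windows, which on active genes lies near the start. The calls used the lowered threshold, and H3K4me3 itself is not compared because it chose the positions. Around the S2 runs, S2 Pol II had 28.4 RPM per kb at the peak window on X and 44.6 RPM per kb on the autosomes, a ratio of 0.637, and the ratio was 0.693 at 2000 to 5000 bp. S2 RNA had ratios of 0.837 at the peak and 0.818 at 2000 to 5000 bp. S2 H3K36me3 had 11.2 RPM per kb on X and 21.7 RPM per kb on the autosomes at 2000 to 5000 bp, a ratio of 0.514, below its ratio of 0.608 over the whole chromosome. Beside active starts, RNA on X was thus closest to the autosome level and H3K36me3 farthest from it among these 3 libraries.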

How the data were processed

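ChIP-seq reads of bam testis and S2 cells (H3K4me3, H3K27me3, H3K36me3 and Pol II) and RNA-seq reads of S2 cells were used, with 1 library each. ChIP-seq alignment was done by the authors with ELAND against the dm3 build, at no more than 2 mismatches, and reads with several positions were dropped. The RNA-seq aligner is not given in the sources used here, and its 36-bp reads were counted by position. Each line of the deposited files is 1 read with a score column, which holds an alignment score in the RNA-seq file and 0 in the ChIP-seq files and was not used. The deposited files also hold more than 3 copies of some reads, so at most 3 copies with the same 5' position and strand were kept, which the authors' methods also state.

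ChIP-seq 5' ends were shifted by 80 bp inward, reads were counted in 500-bp and 50-kb tiles, and densities were given as RPM of the kept reads per kb. X was compared with 2L, 3L and 3R pooled. Shares have Wilson, densities exact Poisson and density ratios exact binomial intervals at 95%. The windows, thresholds and lists were chosen with earlier results of these data known. The named regions were the 3 highest 50-kb regions of each library, the 5 longest H3K27me3 domains, the 3 runs with both marks and the largest smaller density in each sample, and the 3 largest H3K27me3 differences in each direction.

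Alternatives were 1 copy of each read, no shift, window calls at a Poisson p of 0.001 for the depth of each library, a threshold lowered on X, thinning to 1250028 reads, a minimum RNA density of 0.5 RPM per kb, domain gaps of 500 bp, only windows with a read, the median 50-kb region, and leaving out the 10 regions at each arm end. A further alternative, chosen after seeing the data, left out the windows of bam testis H3K36me3 stacks also read in bam testis H3K27me3. Counting functions were tested on simulated data. Python 3.11.15 with numpy 2.4.6, scipy 1.17.1, pandas 2.3.3 and matplotlib 3.10.9 was used. The H3 library, RNA-seq of testis and the microarrays were not analysed here.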

Additional observations from a re-analysis of the deposited data

Results flagged for a closer look

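Reads on XHet, the separate dm3 sequence of X heterochromatin, lie outside the windows of X and were used in no comparison, and all 9 libraries had more of them than the 3 reads that a count of 0 allows. The kept reads numbered 845 in the bam testis H3K4me3 library, 1754 in that of H3K27me3, 1177 in that of H3K36me3 and 709 in that of Pol II. The S2 libraries had 2052 reads with H3K4me3, 9112 with H3K27me3, 5774 with H3K36me3, 11156 with Pol II and 21918 with RNA. Scaled to the kept reads as RPM, these were 470.3 to 690 in the bam testis libraries and 1642 to 5796 in the S2 libraries. The files of the samples differ in the sequences they hold. On the dm3 sequence U the bam testis files had 30151 to 78982 kept reads and the S2 files had 0. Whether this bears on the difference on XHet was not tested.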

How the results depend on the processing

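The X to autosome density ratios stayed below 1 under every alternative tried for them. With 1 copy of each read they were 0.5819 and 0.6835 for bam testis H3K27me3 and H3K36me3, and 0.6919, 0.5156, 0.6663, 0.7336 and 0.9356 for S2 H3K4me3, H3K27me3, H3K36me3, Pol II and RNA. In windows with a read they were 0.5057, 0.5866, 0.7105 and 0.6236 for bam testis and 0.6465, 0.5071, 0.6162, 0.7364 and 0.9037 for S2 cells, in the same order of targets. With median 50-kb regions they were 0.4785, 0.5862 and 0.7624 for the bam testis marks and 0.7104, 0.4879, 0.7112, 0.747 and 0.8872 for S2 cells. Without the arm ends they were 0.7116 and 0.6263 for bam testis H3K36me3 and Pol II and 0.6553, 0.4981, 0.6237, 0.7452 and 0.9349 for S2 cells. Leaving out windows with shared stacks, chosen after seeing the data, gave 0.6387 for bam testis H3K36me3. Counting without the inward shift could not change these ratios, because the shift keeps every read on its arm.

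The share of called windows on X over that on the autosomes turned from below to above 1 when the threshold was lowered on X, to 1.432, 1.107 and 1.323 for bam testis H3K4me3, H3K27me3 and Pol II and to 1.035, 1.065 and 1.081 for S2 H3K4me3, H3K27me3 and Pol II. A lower threshold can only raise the share of X, but it does not fix whether the result passes 1. For H3K36me3 it stayed below 1, at 0.929 in bam testis and 0.950 in S2 cells. X windows with H3K4me3 and H3K27me3 in bam testis numbered 889 (0.7341 times the independent number) with the lowered threshold and 11 (0.726 times, 0.362 to 1.30) at a Poisson p under 0.001, where the autosomes had 51 (0.0752 times), and S2 cells had 43 with the lowered threshold. H3K27me3 domains on X numbered 0 in both samples with gaps of at most 500 bp, and 6 in bam testis and 11 in S2 cells at a Poisson p under 0.001. The autosomes had 116 in bam testis and 204 in S2 cells with these gaps, and 204 and 402 at this p. Neither setting lowered the threshold on X. S2 RNA was present in 32.72% of the X windows and 29.9% of the autosome windows at a minimum of 0.5 RPM per kb, and in 28.83% and 26.6% with 1 copy of each read. The share of bam testis H3K36me3 windows on X also called in S2 cells was 46.07% with the lowered threshold, 49.82% with 1 copy, 29.93% at a Poisson p under 0.001 and 51.62% without shared stacks, against 69.1%, 74.8%, 82.2% and 73.3% on the autosomes. These alternatives of the share were also chosen after seeing the data. No paired analysis was possible because each sample and target had 1 library. A window of X holds a median of 1 to 8 reads in the ChIP-seq libraries, so single windows near a threshold are uncertain.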

Other observations

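Levels were also read in windows called for the same target in the other sample, a choice that does not use the library measured. In windows called for H3K36me3 in bam testis, with the threshold lowered on X, S2 H3K36me3 was 3.46 times its level in the other windows of X and 9.62 times that in the other windows of the autosomes. In windows called for H3K36me3 in S2 cells, bam testis H3K36me3 was 2.47 times its level elsewhere on X and 3.73 times that elsewhere on the autosomes. These windows include those of stacks also read in bam testis H3K27me3. Without them the values were 4.13 on X and 10.2 on the autosomes for S2 cells, and 2.82 and 3.86 for bam testis. S2 H3K4me3 and S2 Pol II also had a lower contrast on X, with 10.5 on X and 17.1 on the autosomes for H3K4me3, and 3.78 and 4.95 for Pol II. With the fixed threshold these 2 libraries had a higher contrast on X, with 22.9 and 17.1 for H3K4me3 and 5.73 and 4.95 for Pol II. For bam testis H3K4me3 the contrast was 4.41 on X and 3.86 on the autosomes, and for bam testis Pol II it was 2.62 and 2.85. For H3K27me3 it was 1.95 on X and 1.98 on the autosomes in bam testis, and 2.59 and 2.60 in S2 cells.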
